A study of Mus musculus with 16 samples.

Results

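The comparison described here is between 4 sham-exposed mice labelled Neil1 knockout and 4 sham-exposed wild-type mice, 8 of the 16 cerebral cortex samples of the series. The samples were taken by the genotype and exposure in their titles, and each was hybridised to 1 single-colour Agilent mouse array. Per the labels, all mice were male, wild types were littermates aged 28 to 42 weeks and the same age range is given for the knockouts, and the line had been backcrossed onto C57BL/6. Both sham groups were placed in the irradiator without radiation, and cortex was collected 20 h later. The protocol describes 2 intraperitoneal injections of BrdU (100 mg/kg each), a nucleoside that marks cells copying their DNA: 1 preceded the exposure, the other followed it by 2 h, and sham mice are not excepted. The other 8 mice, 4 of each genotype, received 6 Gy of whole-body gamma radiation. They serve here as a second set of animals of the same genotypes, and their arrays also entered the estimate of the spread. Neither the deleted part of Neil1 nor the strain in which it was targeted is stated in the labels. The labels name no Cre driver or cell type for the deletion, and cortex RNA pools all cell types of the tissue.

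NEIL1 is a bifunctional DNA glycosylase. Such enzymes start base excision repair: they find an oxidised base, cut it from the sugar and nick the backbone, after which end-processing enzymes, a polymerase and a ligase restore the strand. NEIL1 acts on oxidised pyrimidines and on ring-opened purines, and it overlaps in substrates with NTHL1, OGG1 and NEIL2. Neurons consume much oxygen and do not divide, and this pathway is the main route by which they remove oxidised bases.

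All expression values below are log2 signal relative to the 75th percentile of the same array, so 0 is that percentile and a difference of 1 is a doubling. The 75th percentile of raw intensity ran from 2078 to 2725 on wild-type and from 1513 to 2240 on knockout sham arrays, and 69.3% to 72.4% against 66.1% to 68.5% of spots were well above background. Arrays of a sham group correlated with each other with r of 0.980 to 0.992 over the tested genes and with the other sham group with r of 0.978 to 0.992. The cortical neuron genes Tbr1, Camk2a and Cux2 were well above background on all 8 arrays. Markers of the adjacent striatum varied within both groups: their summed level was 6.35 to 7.78 in wild type, lowest in replicates 1 and 3, and 5.76 to 7.91 in knockout, lowest in replicates 2 and 4. All wild-type arrays lay on 1 slide and all knockout arrays on another, each slide with its own scan, so genotype and slide cannot be told apart in any result below. Cells that are fewer and cells that hold less RNA each also cannot be told apart in tissue RNA.

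Neil1 was read first. Its probe gave -3.30, -3.75, -3.96 and -3.60 in wild-type replicates 1 to 4 and -2.17, -2.47, -2.60 and -2.27 in knockout replicates 1 to 4. The probe was thus brighter in every mouse labelled knockout than in any wild type, and it was well above background on all 8 arrays. The means were -3.65 ± 0.28 (SD, n = 4) in wild type and -2.38 ± 0.19 in knockout, a difference of 1.27 ± 0.19 (SE) or 2.42-fold (limma, adjusted p = 0.0246; exact two-sided permutation test p = 0.0286, the smallest that 4 against 4 allows). The call was lost in 6 of the 8 fits that left out 1 sham array, where the adjusted p reached 0.137. Because the position of the probe relative to the deleted part is not known, its signal does not check the genotype labels.

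Across the genome few genes passed the adjusted test between the 2 groups. Of 17436 genes tested, 9 passed an adjusted p of 0.05 (limma with Benjamini-Hochberg adjustment), which is 0.0516% of all genes: Neil1 and Ppcdc were higher in knockout (0.0115%), and Nrg4, Cd276, Bco2, Rpp25, Atm, Nxpe4 and Commd4 were lower (0.0401%). The median difference over all genes was -0.02, with 9536 lower and 7900 higher. This median was 0.0008 under normexp background correction, 0.02 with the mean of a gene's probes and 0.02 without the filter on dim probes. Under the other alternatives it stayed negative, reaching -0.07 with median centring. At an unadjusted p under 0.05 there were 1340 genes (7.69%), and 840 genes (4.82%) had 4 knockout values that did not overlap the 4 wild-type values. The number of calls depended on single arrays and on how the spread was estimated. It was 5 without knockout replicate 3, 14 without knockout replicate 2, 2 when the spread came from the 8 sham arrays alone and 192 when arrays were weighted by their fit. Under normexp background correction 6 higher and 7 lower genes were called, and under quantile normalization 4 higher and 8 lower.

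**Figure D1:**
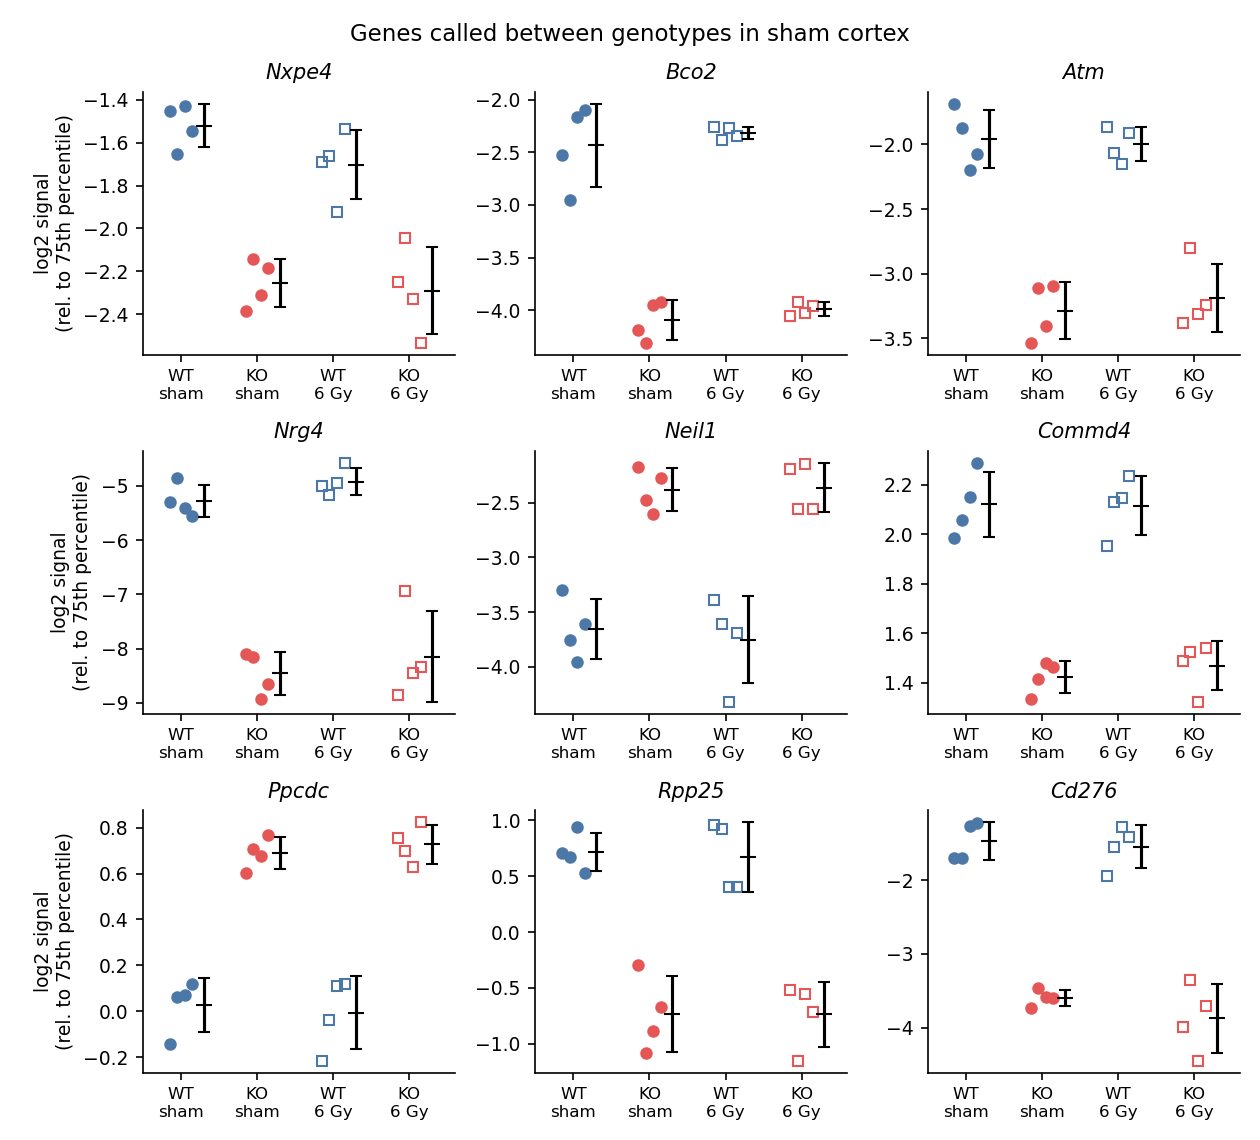
Log2 signal relative to each array's 75th percentile for the 9 genes called between sham knockout and sham wild type, in gene order along the chromosome. Filled circles are sham mice, open squares are irradiated mice, and bars are the mean ± SD of 4 mice; each panel has its own vertical range, and the 4 knockout values lie clear of the 4 wild-type values in every panel.

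Nrg4 encodes neuregulin 4, a growth factor of the EGF family that binds ERBB4. Its probe gave -5.30, -4.86, -5.41 and -5.56 in wild type and -8.09, -8.15, -8.93 and -8.66 in knockout. It was well above background on all 4 wild-type arrays and on none of the knockout arrays, so the knockout level is only bounded. On this scale Nrg4 was at least 2.75-fold lower in knockout (measured means -5.28 and -8.46, limma adjusted p = 0.000703). The call was lost under normexp background correction, where the Nrg4 difference was -0.58 (adjusted p = 0.267), and with the authors' deposited scores (adjusted p = 0.172). A second Nrg4 probe, also not above background on any knockout sham array, was at least 1.28-fold lower. Erbb4, the receptor, was higher by 0.78 ± 0.31 without passing the test (adjusted p = 0.558), and its probe exceeded background clearly on 2 wild-type arrays and on all 4 knockout arrays.

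Cd276 encodes B7-H3, a member of the B7 family of immune checkpoint ligands. Its values were -1.69, -1.69, -1.26 and -1.22 in wild type and -3.74, -3.46, -3.59 and -3.60 in knockout. The knockout values had an SD of 0.11, and the gap to the lowest wild type was larger than the range of either group. Cd276 was 4.38-fold lower in knockout (difference -2.13 ± 0.21 SE, adjusted p = 0.000496), and it was the gene that kept its call under all 21 alternative settings.

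Bco2 encodes beta-carotene oxygenase 2, a mitochondrial enzyme that cleaves carotenoids. Wild-type mice gave -2.53, -2.95, -2.17 and -2.10, and knockout mice gave -4.19, -4.31, -3.95 and -3.92. Wild types spread over a wider range than knockouts, with wild-type replicate 2 lowest, and the groups did not overlap. The difference was -1.66 ± 0.16 (SE), or 3.16-fold lower, with an adjusted p of 0.000496.

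Atm encodes the kinase that is activated by DNA double-strand breaks and that phosphorylates p53 and CHK2. Its level was -1.69, -1.87, -2.20 and -2.08 in wild type and -3.54, -3.11, -3.40 and -3.09 in knockout. Every knockout was lower than every wild type, by 2.51-fold on average (difference -1.33 ± 0.15 SE, adjusted p = 0.00184). A second Atm probe differed by -1.02. Npat, which regulates histone gene transcription and is the next tested gene to Atm on the chromosome, was 0.34 ± 0.12 (SE) lower in knockout, with no overlap between groups, and did not pass the test (adjusted p = 0.504).

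Rpp25, which encodes a protein subunit of the RNA-processing enzymes RNase P and RNase MRP, gave 0.71, 0.67, 0.95 and 0.53 in wild type. In knockout it gave -0.30, -1.09, -0.88 and -0.67. Wild types lay above the 75th percentile of their arrays and knockouts below it. The difference was -1.45 ± 0.19 (SE), or 2.73-fold, with an adjusted p of 0.00767. Without knockout replicate 3 the call was lost.

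Commd4, a COMM domain gene of the endosomal sorting complex Commander, gave 1.99, 2.06, 2.15 and 2.29 in wild type and 1.33, 1.41, 1.48 and 1.46 in knockout. The shift was small against that of Nrg4, and so was the spread: -0.70 ± 0.09 (SE), or 1.62-fold lower (adjusted p = 0.00767). Its second probe differed by -0.69.

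Nxpe4 gave -1.45, -1.65, -1.43 and -1.55 in wild type and -2.38, -2.14, -2.31 and -2.18 in knockout. It was 1.66-fold lower in knockout (difference -0.73 ± 0.11 SE, adjusted p = 0.0291). It was the least stable call, lost in 9 of 21 alternative settings, 7 of which left out a single sham array.

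Ppcdc was the other gene that was higher in knockout. It encodes phosphopantothenoylcysteine decarboxylase, an enzyme of coenzyme A synthesis. Wild types gave -0.14, 0.06, 0.07 and 0.12 and knockouts gave 0.60, 0.71, 0.68 and 0.77, a difference of 0.66 ± 0.10 (SE) or 1.58-fold (adjusted p = 0.0150). Leaving out any of 5 sham arrays ended this call.

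The 9 called genes lay together. All were on chromosome 9, the chromosome of Neil1, and within 10 Mb of it, where 220 genes were tested (4.09% called). Within 20 Mb, 380 genes were tested and 2.37% were called. None of the 17056 genes outside that window was called with limma, 595 of which lay elsewhere on chromosome 9, although 1274 of the 17056 had an unadjusted p under 0.05. Non-overlapping groups made up 10.8% of the window (41 genes, 25 lower and 16 higher) and 4.68% of the genes outside it. An unadjusted p under 0.05 was reached by 17.4% of the window and 7.47% of the rest. Genes were placed by a RefSeq annotation of another build than that of the array, so only their order and membership of the window were used. Probes without a gene name could not be placed and are in none of these counts. With each probe tested alone, 18 were called, and 8 of these had no name. The smallest adjusted p (limma) belonged to unnamed probes, A_55_P2715091 and A_55_P2054967. A line carried through backcrossing can keep donor chromosome around the targeted gene, and a sequence difference under a probe can change its signal. Neither was tested here.

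**Figure D2:**
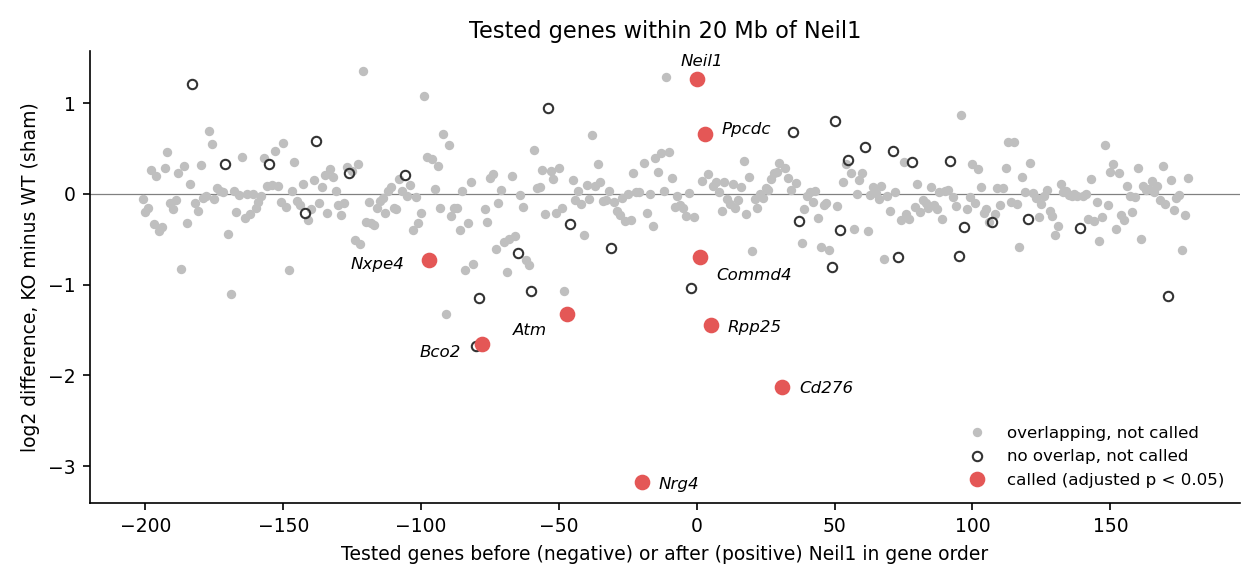
Log2 difference (knockout minus wild type, sham) of the 380 tested genes within 20 Mb of Neil1, against their rank in gene order with Neil1 at 0. Red points are the 9 called genes, open circles are 32 further genes whose groups did not overlap, and grey points are the rest; the called genes run from rank -97 to rank 31.

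The called genes did not form an unbroken block. In gene order, Nxpe4 was 97 tested genes before Neil1, Bco2 78, Atm 47 and Nrg4 20. Commd4 followed Neil1 directly, Ppcdc was 3 genes after it, Rpp25 5 and Cd276 31. Of the 129 tested genes from Nxpe4 to Cd276, 17 did not overlap between groups and 14 of these were lower in knockout. Called genes set both ends of this stretch, and the 9 called genes, 7 of them lower, are among the 17. Of all genes, 4.82% did not overlap. Of the 10 tested genes nearest to Neil1, 5 on each side, 3 were called, and the differences of the 7 others ran from -1.03 to 0.22. Scamp5, a secretory carrier membrane protein gene between Ppcdc and Rpp25, had the highest of these. Man2c1, which encodes a cytosolic alpha-mannosidase, differed by -0.26 ± 0.14 with overlapping groups, and Ptpn9, a tyrosine phosphatase gene, by -0.15 ± 0.11.

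Man2c1os, which is transcribed antisense to Man2c1, had the lowest difference of the 7. It gave -3.93, -4.02, -3.86 and -3.62 in wild type and -5.05, -4.70, -5.13 and -4.68 in knockout. The groups were separate, and the adjusted p was 0.0950.

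Among the 32 genes of the window that did not overlap and were not called, Pts, the enzyme gene of the second step of tetrahydrobiopterin synthesis, differed by -1.15 ± 0.21 (adjusted p = 0.0950). Pts is the gene next to Bco2 in the tested order. Alg9, a mannosyltransferase gene of N-glycan assembly, differed by -0.65 and the co-chaperone gene Dnaja4 by -0.60. Plet1 exceeded background clearly on every wild-type array and on none of the knockout sham arrays, which bounds its fold at 1.78 or more on this scale; under normexp the Plet1 difference was -0.13. Higher in knockout without a call were Zc3h12c, a gene of the regnase family of RNA-cutting enzymes, by 0.95, the netrin receptor gene Neo1 by 0.68, and the ribosomal protein genes Rplp1 by 0.38 and Rpl4 by 0.35.

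The irradiated mice gave a second reading of genotype in separate animals, with the same slides. All 9 called genes differed in the same direction there, with no overlap, and all 9 were called. Both readings came from the same limma fit and used the same estimate of each gene's spread, so the calls are not independent. Of all genes, 205 (1.18%) were called in irradiated mice, 143 higher (0.82%) and 62 lower (0.356%), and 8.73% did not overlap; 1.77% of all genes had separate groups in the same direction in both readings. Cd276 was -1.54 ± 0.29 (SD, n = 4) in irradiated wild type and -3.88 ± 0.46 in irradiated knockout. Bco2 was -2.32 ± 0.06 and -3.99 ± 0.06. Neil1 was -3.75 ± 0.40 and -2.36 ± 0.23, a difference of 1.39 ± 0.19 (SE) beside 1.27 in sham. Nrg4 was again not above background on any knockout array and at least 2.60-fold lower. The change of the genotype difference from sham to irradiated mice was between -0.20 for Cd276 and 0.15 for Nxpe4. No gene passed the interaction test (limma; 222 of 17436 genes, or 1.27%, had an unadjusted p under 0.05, and the smallest adjusted p was 0.99992).

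**Figure D3:**
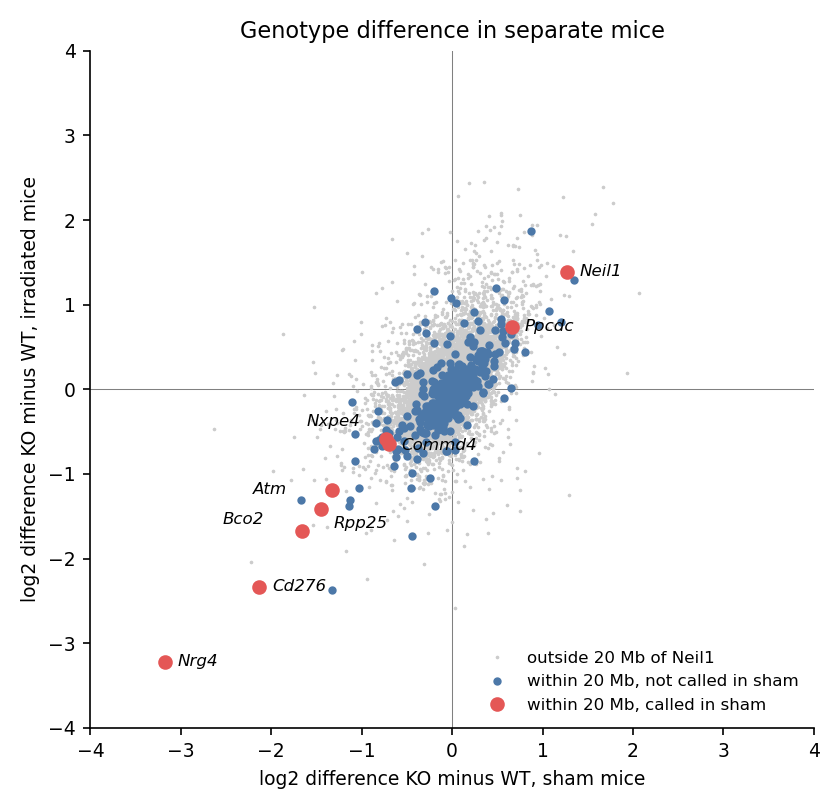
Log2 difference between knockout and wild type in sham mice (horizontal) and in irradiated mice (vertical) for all tested genes. Red points are the 9 genes called in sham, blue points the other genes within 20 Mb of Neil1 and grey points genes outside the window; the red points lie near the diagonal on both sides of 0.

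Several of the uncalled neighbours passed the test in irradiated mice. Man2c1os differed there by -1.17 (adjusted p = 0.0173), Pts by -1.38 (0.0101), Alg9 by -0.90 (0.0230), Dnaja4 by -0.70 (0.0357) and Rpl4 by 0.44 (0.0285). Of the 205 genes called in irradiated mice, 21 lay in the window (5.53% of its genes) and 184 outside it (1.08% of those genes). The sign was the same in sham for 200 of the 205. The share of all genes with the same sign in both readings was not computed. The slide difference is the same in both readings.

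Outside the window the smallest adjusted p was 0.0658, for 2 genes. Pdia4, which encodes a protein disulfide isomerase of the endoplasmic reticulum, gave -1.34, -1.46, -1.53 and -1.77 in wild type and -0.63, -0.57, -0.93 and -0.86 in knockout. Kcnh6, a voltage-gated potassium channel gene, gave -3.69, -3.84, -3.89 and -3.70 against -2.95, -3.23, -3.09 and -2.81. Neither gene's groups overlapped, and the differences were 0.78 ± 0.13 (SE) and 0.76 ± 0.13. Kcnh6 was called under normexp, quantile normalization, cyclic loess and median centring, and separately with the authors' deposited scores. It was also called with the replicate block, with array weights and without knockout replicate 2. With the mean of its probes in place of the brightest, the Kcnh6 difference was 0.15 (adjusted p = 0.882). Pdia4 was called with the replicate block and with array weights. Ttyh3, which encodes a tweety-family membrane protein, was higher by 0.76 ± 0.13 (adjusted p = 0.0790).

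A larger difference with more spread was that of Cd247, the zeta chain of the T cell receptor. Its tested probe gave -2.09, -1.70, -2.83 and -1.19 in wild type and -0.86, -0.18, 0.06 and 0.29 in knockout. The difference was 1.78 ± 0.33 (SE; limma adjusted p = 0.103). The other Cd247 probes failed the filter on dim probes, with wild-type sham means of -8.43 and -7.94 and differences of 1.18 and -0.26. The Cd247 reading thus rests on the bright probe alone. Of the 15 lymphocyte markers tested, Cd247 included, 6 were higher and 9 lower, and their summed level was 2.95 to 3.30 in wild type and 2.88 to 3.38 in knockout. Rn28s1, the 28S ribosomal RNA, gave 4.21, 4.90, 3.17 and 4.95 in wild type and 4.95, 6.14, 6.31 and 6.49 in knockout. It was thus 1.66 ± 0.40 (SE) higher in knockout without passing the test in sham (adjusted p = 0.295), and higher by 2.39 in irradiated mice (adjusted p = 0.0186). The part of this residual ribosomal signal in other differences was not tested.

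No DNA glycosylase other than Neil1 passed the test. Of the 10 tested, Neil1 included, 5 were higher and 5 lower in knockout, with a median of -0.01. An unadjusted p under 0.05 (limma) was reached by 3 of the 10, Neil1, Ung and Mpg, beside 7.69% of all genes. The enzymes nearest to NEIL1 in substrates differed little: Ogg1, which removes oxidised guanine, by 0.03 ± 0.15 (SE), Neil2 by -0.10 ± 0.30 and Nthl1, the endonuclease III homologue, by 0.16 ± 0.11. For Nthl1 the wild types gave -3.01, -2.95, -3.10 and -2.96 and the knockouts -2.68, -3.01, -2.73 and -2.96, so the groups overlapped. Mutyh, which removes adenine opposite oxidised guanine, differed by -0.19 ± 0.22. A second Neil2 probe differed by 0.73, in the opposite direction to the first.

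Among glycosylases of other lesions, Ung, the uracil-DNA glycosylase, gave 2.47, 2.53, 2.24 and 2.57 in wild type and 2.37, 3.31, 3.19 and 3.5 in knockout. Knockouts 2 to 4 lay above all wild types and knockout replicate 1 within them (0.64 ± 0.23 SE, adjusted p = 0.515). Mpg, which removes alkylated purines, differed by -0.27 ± 0.12 and Tdg, the thymine-DNA glycosylase, by 0.27 ± 0.14, both with overlapping groups. A second Mpg probe differed by 0.16, in the opposite direction to the first. Smug1 and Mbd4 differed by -0.04 and -0.08.

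No gene of the later steps of base excision repair passed the test. Of 18 tested, 11 were higher and 7 lower, with a median of 0.03. Xrcc1, the scaffold of the repair complex, was lower by 0.20 ± 0.10 and Poll, a gap-filling polymerase, by 0.22 ± 0.09.

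Other repair and damage-response genes gave 1 call. In nucleotide excision and mismatch repair 0 of 23 were called (median -0.02). In double-strand break repair 1 of 25 was called, Atm, and 18 were lower and 7 higher (median -0.07). Dclre1c, the Artemis nuclease, was lower by 0.41 ± 0.18 (adjusted p = 0.614) with no overlap, while its other probes differed by -0.37 and 0.17. Chek2, a substrate of ATM, was higher by 0.40 ± 0.17 (adjusted p = 0.614). Of 34 p53 target genes none was called and 16 were higher; Bax, the pro-apoptotic BCL2 family gene, differed by 0.42 ± 0.17 and Trp53inp1 by -0.16 ± 0.09. By limma's unadjusted p under 0.05, the counts were 0 of 23, 3 of 25 and 1 of 34, beside 7.69% of all genes.

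Genes that defend against oxidative stress were split as well, with 15 higher and 17 lower of 32 tested, a median of -0.02 and none called (4 with an unadjusted p under 0.05 by limma, a level that 7.69% of all genes reached). Nqo1, an NRF2-driven quinone reductase, gave -3.04, -2.73, -2.82 and -2.89 in wild type and -4.39, -3.31, -3.14 and -3.32 in knockout. Knockout replicate 1 stood apart, and the mean difference was -0.67 ± 0.23 (SE; adjusted p = 0.486). Mt1, a metallothionein gene, was higher in all knockouts by 0.22 ± 0.09 on average (adjusted p = 0.560), while a second probe differed by -0.02.

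**Figure D4:**
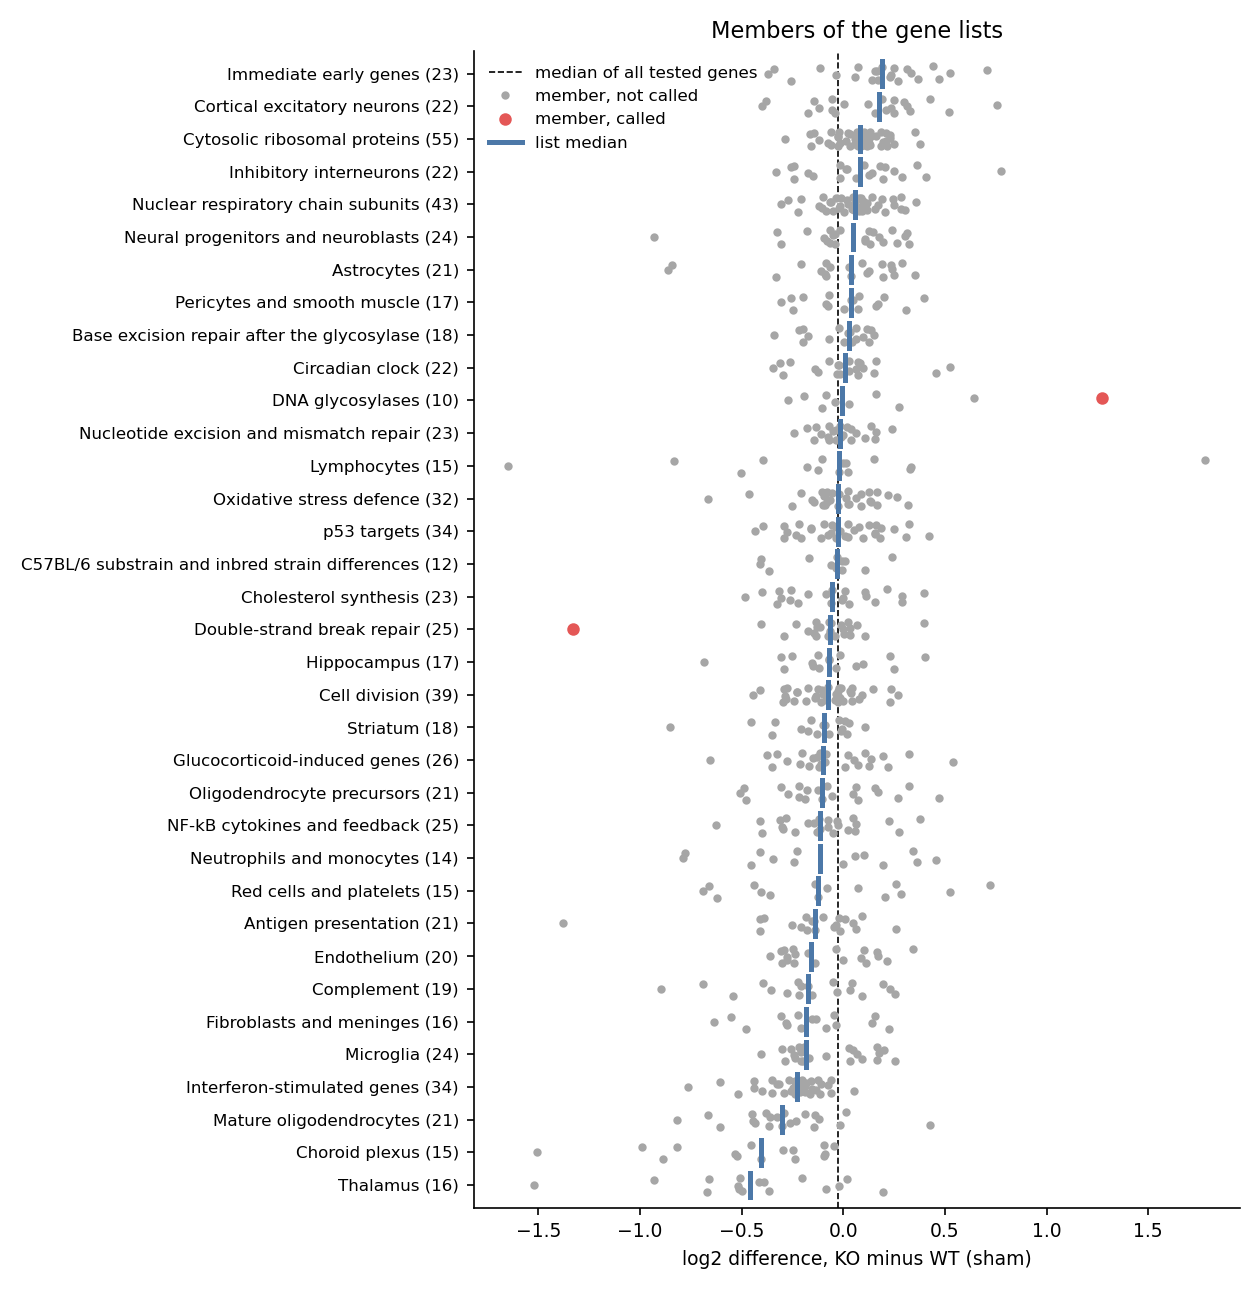
Log2 difference (knockout minus wild type, sham) of every tested member of 35 gene lists, with the number of tested members in parentheses, ordered by list median. Blue bars are list medians, the dashed line is the median of all tested genes (-0.02), and the 2 red points are the members called, Neil1 among the glycosylases and Atm in double-strand break repair.

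No interferon-stimulated gene was called, but 33 of 34 had a lower mean in knockout, with a median of -0.23 beside -0.02 over all genes. The median kept its sign under all 20 alternatives, at -0.31 to -0.16. Oas2, which senses double-stranded RNA, gave -3.86, -4.11, -3.66 and -3.62 in wild type and -4.77, -4.69, -4.73 and -4.12 in knockout. All 4 knockouts were below all 4 wild types, by the smallest margin for knockout replicate 4 (-0.76 ± 0.30 SE, limma adjusted p = 0.559). Parp14 was lower by 0.44 ± 0.18 and Ifi35 by 0.35 ± 0.15, each with separate groups, while their other probes differed by -0.07 and -0.04, and 6 of 34 members in all did not overlap, where 4.82% of all genes did not. In irradiated mice 19 of 34 were lower and the median was -0.01, and 1 member had an unadjusted interaction p under 0.05. The summed level of the list was 4.37, 4.31, 4.73 and 4.68 in wild type and 4.37, 4.22, 4.34 and 4.26 in knockout, so wild-type replicates 3 and 4 were higher than the rest and the other 6 mice lay together.

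Complement genes had a median of -0.17, with 13 of 19 lower and none called, and under normexp the median was -0.013. C4b, a component of the classical pathway, was lower by 0.54 ± 0.22 (adjusted p = 0.562), while its other probe differed by -0.10. C2, its partner in the C3 convertase, was lower by 0.69 ± 0.36 with no overlap (adjusted p = 0.688). Of 21 antigen presentation genes 16 were lower (median -0.14, none called). Ciita, the master regulator of MHC class II genes, exceeded background clearly in 4 wild types and 1 knockout. The Ciita difference of -1.38 ± 0.38 (adjusted p = 0.367) became -0.049 under normexp. H2-DMb1, a class II peptide-loading chaperone, was lower by 0.41 ± 0.15.

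NF-kB cytokine and feedback genes had a median of -0.11, with 18 of 25 lower; this median turned to 0.03 under normexp. Microglial markers had a median of -0.18, with 14 of 24 lower (-0.06 with the mean of a gene's probes), none called, and a summed level of 6.55 to 6.77 in wild type and 6.41 to 6.67 in knockout. P2ry12, a purine receptor that defines resident microglia, gave 0.16, 0.33, 0.22 and 0.15 in wild type and -0.06, 0.16, -0.04 and -0.35 in knockout. The groups met at knockout replicate 2, and the difference was -0.29 ± 0.10 (SE; adjusted p = 0.504). Ctss, a lysosomal protease of microglia, differed by -0.24 ± 0.12. By limma's unadjusted p under 0.05 there were 4 interferon-stimulated, 1 complement, 2 antigen presentation, 1 NF-kB and 1 microglial genes, beside 7.69% of all genes.

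Mature oligodendrocyte markers were lower in knockout for 19 of 21 genes, with a median of -0.30 and none called. None had an unadjusted p under 0.05 by limma, a level that 7.69% of all genes reached. Mobp, a myelin protein gene, gave 2.17, 3.23, 2.995 and 3.26 in wild type and 2.91, 1.27, 2.08 and 2.74 in knockout. Wild-type replicate 1 and knockout replicates 2 and 3 were low, and the groups overlapped. Without knockout replicate 2 the list median was -0.08. In irradiated mice 18 of 21 were higher in knockout and the median was 0.15. Precursor markers had a median of -0.10, with 13 of 21 lower, and the sign changed under 2 alternatives.

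**Figure D5:**
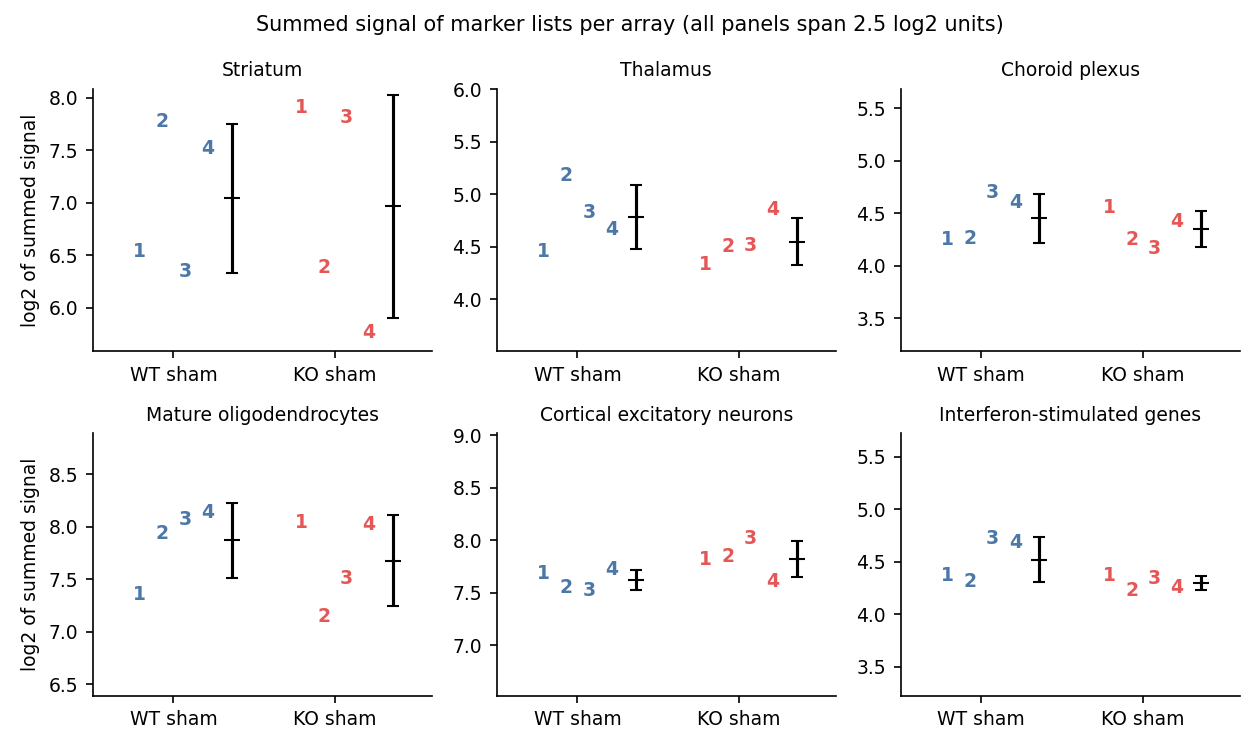
Log2 of the summed signal of 6 marker lists on each sham array, relative to the array's 75th percentile. Digits are replicate numbers, bars are the mean ± SD of 4 mice, and every panel spans the same range; the groups overlap in each list, and the striatal sum varies most within a group.

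Markers of the thalamus and of the choroid plexus gave the lowest medians of the 35 lists. Of 16 thalamus markers 14 were lower (median -0.46), and of 15 choroid plexus markers 15 were lower (median -0.41). None was called, and by limma's unadjusted p under 0.05 there was 1 gene in each, beside 7.69% of all genes. Under normexp the choroid plexus median was -0.14. Lef1, a thalamic transcription factor gene, gave -0.29, -0.005, -0.66 and -0.26 in wild type and -1.02, -0.84, -0.86 and -0.52 in knockout (-0.51 ± 0.15 SE, adjusted p = 0.394). Otx2, a transcription factor of the choroid plexus, gave -4.34, -2.28, -4.67 and -3.90 against -6.17, -4.38, -6.03 and -4.64. Wild-type replicate 2 was the highest mouse for both genes, and without it the thalamus median was -0.0018. The summed thalamus level was 4.45 to 5.18 in wild type and 4.33 to 4.85 in knockout, and that of the choroid plexus 4.25 to 4.70 and 4.17 to 4.56. Striatal markers were lower for 14 of 18 (median -0.09), and the sign changed in 4 fits that left out 1 array. Hippocampal markers were lower for 12 of 17 (median -0.07). The part of tissue taken from these regions in the other differences was not tested.

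Cortical excitatory neuron markers were higher for 14 of 22 genes (median 0.17, none called), and the median was -0.0019 without wild-type replicate 3. Of the 22, 2 had an unadjusted p under 0.05 by limma, beside 7.69% of all genes. Camk2a, the alpha subunit of the synaptic kinase CaMKII, gave 5.34, 4.92, 4.36 and 5.11 in wild type and 5.31, 5.73, 6.08 and 5.61 in knockout. The groups touched at wild-type replicate 1 and knockout replicate 1 (0.75 ± 0.20 SE, adjusted p = 0.367). Cux2, an upper-layer transcription factor gene, was higher by 0.52 ± 0.20 with overlapping groups. Interneuron markers were higher for 14 of 22 (median 0.08, sign changed under quantile normalization). Immediate early genes, which follow neuronal activity, were higher for 18 of 23, with a median of 0.19 that stayed between 0.10 and 0.32 under all 20 alternatives; Egr4 differed by 0.44 ± 0.16 (adjusted p = 0.504). In irradiated mice 9 of 23 immediate early genes were higher.

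Of 21 astrocyte markers 12 were higher; the list's median, 0.04, turned sign under normexp, quantile normalization and median centring. Slc1a2, the main glutamate transporter, was higher by 0.35 ± 0.13 (adjusted p = 0.519). Cryab, a small heat-shock protein gene that lies in the window, differed by -0.86 ± 0.23 (adjusted p = 0.367), with overlapping groups. Progenitor and neuroblast markers were 12 higher and 12 lower (median 0.05), with Tubb3 higher by 0.32 ± 0.15 in separate groups and Tbr1 by 0.31 ± 0.17. Of 39 cell division genes 29 were lower (median -0.07), and the sign turned under normexp. None of these genes was called. By limma's unadjusted p under 0.05 the counts were 3 of 21 astrocyte, 1 of 24 progenitor and 1 of 39 cell division genes. Of all genes, 7.69% reached that level.

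Endothelial markers had a median of -0.16 (13 of 20 lower) and fibroblast and meningeal markers of -0.18 (13 of 16 lower). Mfsd2a, the lipid transporter of the blood-brain barrier, was lower by 0.25 ± 0.08 in separate groups (adjusted p = 0.483). Pericyte and smooth muscle markers were higher for 10 of 17, and their median of 0.04 changed sign in 8 of 20 alternatives. Acta2, smooth muscle actin, was higher by 0.39 ± 0.16, while its other probes differed by -0.32 and 0.13. Red cell and platelet genes (9 of 15 lower) and neutrophil and monocyte genes (8 of 14 lower) had medians of -0.12 and -0.12, and both turned sign when single arrays were left out.

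Cytosolic ribosomal protein genes were higher for 42 of 55 (median 0.08), and 7 did not overlap between groups, beside 4.82% of all genes. Rplp1 and Rpl4 of this list lie in the window around Neil1, where 10.8% of genes did not overlap. Nuclear respiratory chain genes were higher for 28 of 43 (median 0.06), and 6 did not overlap, beside the same 4.82%. Both medians turned negative under quantile normalization, to -0.04 and -0.07. Cox6c and Cox8a, subunits of cytochrome c oxidase, were higher by 0.36 ± 0.11 and 0.28 ± 0.09, with adjusted p of 0.378 and 0.406. None of these genes was called in sham.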

How the data were processed

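Cortex RNA of 16 mice was measured, 1 array per mouse, from 200 ng of total RNA labelled with Cy3 per the labels' protocols. The authors extracted spot intensity with Agilent Feature Extraction 12.0.3.1, and per the file headers the deposited processed intensity was background-subtracted and detrended, not scaled between arrays. The authors also deposited a score per feature, used as an alternative; the sources used here do not state how it was made. Log2 processed intensity minus the array's 75th percentile over non-control spots was computed, outlier-flagged spots were set to missing, and no non-control spot was saturated. Probes well above background on at least 4 of 16 arrays were kept (39589 of 56605). A RefSeq table of GRCm38.p6 named 32994 of the 35886 probes that carry a RefSeq accession, while the array design names mm9. The brightest probe stood for a gene. limma 3.58.1 (R 4.3.3, statmod 1.5.0) fitted 4 group means over 16 arrays with 12 residual degrees of freedom, and the scripts were tested on simulated data. Tests were two-sided, with Benjamini-Hochberg adjustment over 17436 genes and a threshold of 0.05. An "at least" fold sets the bright group's mean against the higher of the dim probe's signal and the lowest signal well above background on each array. Such a bound holds on this scale only, and the difference can be smaller under another background correction, as for Nrg4 under normexp. Lists are described by counts and medians without a test; a summed level is the log2 of the members' summed linear signal.

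The text names Neil1, called genes without overlap, the 3 members of a list with the smallest p (some of these are not reported here), called genes nearest to Neil1 and the tested glycosylases. Other genes near or outside the window, and Erbb4, Rn28s1 and the further examples, were chosen after their values were seen. The members, lists and alternatives were chosen with earlier results of these data known. Normexp correction used the median spot signal, since the files used here give no mean signal. Replicate numbers come from the titles; some samples carry another number in their description. Same-numbered sham mice deviated from their group means with correlations of -0.11, 0.25, -0.26 and 0.19, so the numbers were not taken as pairs. The labels describe 4 mice per group, so the limma p-values set each difference against the spread between mice on these slides, pooled over the 4 groups. The number of arrays limits the precision.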

Additional observations from a re-analysis of the deposited data

Results flagged for a closer look

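In 12 of 220 sham groups of 4 values examined, 1 mouse lay far from the other 3 by Dixon's 95% criterion; chance gives about 1 in 20. Among the single genes, knockout replicate 1 was low for Ogg1 (-1.76, next -1.38), Nqo1 (-4.39, next -3.32) and Ifi35 (-1.20, next -0.91). Knockout replicate 2 was high for Lss, an enzyme gene of cholesterol synthesis (0.24, next -0.17), and for Ciita (-6.29, next -7.32), and low for the summed level of the lymphocyte markers (2.88, next 3.33). Knockout replicate 3 was low for Chek2 (-5.99, next -5.57), and knockout replicate 4 was high for Oas2 (-4.12, next -4.69). Wild-type replicate 1 was low for Apod, a lipocalin gene of the oligodendrocyte list (4.59, next 4.998), and for the summed levels of the oxidative stress (8.38, next 8.56) and oligodendrocyte precursor lists (5.31, next 5.72). Wild-type replicate 3 was high for the summed level of the later base excision repair genes (5.86, next 5.74). None of these genes or lists was among the 9 called genes.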

How the results depend on the processing

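All 9 called genes kept their direction under the alternatives that gave a value for them, and the counts of calls moved as follows. Against 9 calls, 2 higher and 7 lower, there were 13 under normexp (6 higher, 7 lower), 12 under quantile normalization (4 and 8), 12 without a filter on dim probes (4 and 8), 11 with the replicate block (4 and 7, 8 shared with the 9) and 18 when each probe was tested alone (6 and 12). With the spread from sham arrays alone 2 were called (0 higher, 2 lower, 2 in the window), and with array weights 192 (124 higher, 68 lower, 30 in the window). Tested alone, the 17056 genes outside the window gave 0 calls by limma and 1275 with an unadjusted p under 0.05. Leaving out 1 sham array gave 5 to 14 calls, 0 to 5 higher, 5 to 9 lower and 5 to 10 in the window. The Neil1 in sham difference was 1.27 with sham arrays only (adjusted p = 0.116) and 1.17 to 1.39 without single arrays. The cause of these changes was not tested. Small uncalled differences turned sign: Ogg1 to -0.016 with median centring and over -0.090 to 0.13 without single arrays; Neil2 to 0.31 with the mean of its probes; and, without single arrays, Neil2 over -0.27 to 0.12, Mbd4 over -0.25 to 0.038 and Smug1 over -0.15 to 0.017. Of 1382 results for 66 uncalled genes, 1341 kept their sign and stayed uncalled, though some changed in size, 32 became calls and 9 turned sign. The genotype slide, 4 mice per group and dim signals such as Nrg4 in knockout limit what can be read.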

Other observations

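Glucocorticoid-induced genes were lower in knockout for 15 of 26, with a median of -0.10, and circadian clock genes were 11 higher and 11 lower. Of 23 cholesterol synthesis genes 13 were lower, none was called and 6 had an unadjusted p under 0.05 by limma, beside 7.69% of all genes. Lss, which closes the sterol ring, was lower by 0.48 ± 0.12 (SE; adjusted p = 0.343) in separate groups, while its other probes differed by 0.14 and -0.19. Insig1, which holds the sterol sensor in the endoplasmic reticulum, was higher by 0.39 ± 0.12 (adjusted p = 0.424). In irradiated mice both were called, at -0.53 and 0.63. Of 12 tested genes known to differ between C57BL/6 substrains or inbred strains, none was called. None of the 12 had an unadjusted p under 0.05 by limma, beside 7.69% of all genes.

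Tested on their own, 18 of 39589 probes were called, 10 of them named and 8 without a gene name here. The named ones belonged to 8 genes, all within the window. The 8 unnamed probes were 4 higher and 4 lower in knockout, and all 8 were also called in irradiated mice. Probe A_55_P2054967 gave -2.08, -1.90, -1.36 and -1.55 in wild type and -7.23, -7.75, -6.64 and -6.70 in knockout. It was not above background on any knockout sham array and at least 32.1-fold lower there. Probe A_55_P2715091 was at least 6.14-fold lower, from means of -4.12 and -8.87. Probes A_52_P673978 and A_51_P109741 were higher in knockout, from means of -6.16 to -3.91 and from -1.10 to -0.08. Their position in the genome is not known here.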
